A study of Tribolium castaneum with 2 samples.

Results

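Single-exon genes are genes whose coding sequence lies in 1 uninterrupted stretch of the genome. They were taken from the reference annotation carried by the deposited transcript files of *T. castaneum*, the red flour beetle, as genes with a TC identifier whose every reference transcript has 1 exon and that lie on the linkage groups ChLG2 to ChLG10. This rule used the annotation only and no measured value. It gave 2132 genes of the 13663 with a TC identifier on these linkage groups and the other 11531 were multi-exon genes. The whole annotation held 17070 genes, of which 16542 had a TC identifier.

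RNA was sequenced from whole last-instar wild type larvae, 20 days from oviposition, in 1 library after 12 h of hypoxia/hypercapnia and 1 library after 12 h of normoxia. The treated larvae were sealed, 20 to a bottle, with a supplied gas of 2% O2, 18% CO2 and 80% N2, and the normoxia larvae had ambient air. "Hypoxia" below means this mixture, in which the effects of oxygen and of CO2 cannot be told apart. The sample labels carry the same text for both libraries apart from the titles TC2 and TC1, and that TC2 is the hypoxia library and TC1 the normoxia library comes from the study's own text. Samples of a condition were pooled before sequencing, so there was no replicate, no gene was tested, and every difference below is a difference between 2 libraries. In RNA of whole larvae, fewer cells of a type and less RNA per cell cannot be told apart.

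Genes without introns give a messenger RNA that needs no splicing. In animals the replication-dependent histone genes, whose messages lack a poly(A) tail, and many genes of the 70 kDa heat shock proteins are known for this structure, and others arose as copies of processed messages. Reference models that hold the coding sequence alone can also show 1 exon where the gene has an intron in its untranslated region. The libraries were made from poly(A) RNA, so messages without a tail were not selected.

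The single-exon models were short. Their coding length had a median of 444 bases and quartiles of 279 and 927 bases, against a median of 1110 bases and quartiles of 636 and 1746 bases in multi-exon genes. The length was a multiple of 3 in 2127 of the 2132 members and in 11464 of the 11531 multi-exon genes, so nearly all these models have the lengths of coding sequences without untranslated regions, and the lengths are called coding lengths here. Of the members, 1162 (54.5%) were under 500 bases, 515 had from 500 to under 1000 bases, 383 from 1000 to under 2000 bases and 72 had 2000 bases or more. Their share of all genes was lowest on ChLG10 (76 members, 12.1%) and highest on ChLG8 (281 members, 17.3%).

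Most members stood apart from other genes. These numbered 1941, while 97 lay inside an intron of a gene on the other strand, 3 inside an intron of a gene on the same strand, 90 shared exonic bases with a gene on the other strand and 1 shared exonic bases with a gene on the same strand. The kit used does not mark strand, so reads of the overlapping pairs cannot be told apart. Of the 97 members inside an intron on the other strand, 20.6% were at 1 FPKM or more in hypoxia and 21.6% in normoxia, against 37.3% and 40.8% of the members standing apart. FPKM, the fragments of a transcript scaled to its length and to the fragments mapped in the library, is the unit of every level given here.

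Members also lay beside each other. Of the 2132, 816 (38.3%) were in runs of at least 2 neighbouring single-exon genes, and 10 runs had 5 or more members, 57 genes in all. In 4 of these 10 runs every gene was listed at 0 in both libraries. The longest run, of 9 members on ChLG6 from 10441172 to 10518447, held genes of 378 to 489 bases that differed widely in level. Its member TC015792 (384 bases) had 1805 FPKM in hypoxia and 2022 FPKM in normoxia, and the other 8 members had at most 1.90 FPKM in hypoxia and 2.34 FPKM in normoxia. In a run of 5 on ChLG8 from 14288920 to 14296012 all genes were expressed in both libraries, the highest, TC006593, at 326 FPKM in hypoxia and 377 FPKM in normoxia. TC015792 and TC006593 were chosen after their values were seen.

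Fewer single-exon than multi-exon genes were expressed, where expressed means at least 1 FPKM. In hypoxia 774 of the 2132 members (36.3%) were expressed, against 7190 of 11531 multi-exon genes (62.4%), and in normoxia 845 members (39.6%) against 7415 (64.3%). In both libraries 711 members were expressed, 63 in hypoxia only and 134 in normoxia only. Among expressed genes the level was also lower. The median of the expressed members was 11.6 FPKM in hypoxia and 11.5 FPKM in normoxia, with quartiles of 4.15 and 48.1 FPKM in hypoxia and 3.60 and 43.9 FPKM in normoxia, while the medians of the expressed multi-exon genes were 20.2 FPKM in hypoxia and 20.8 FPKM in normoxia. Genes are not replicates, so no test was made of these shares and medians.

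**Figure D1:**
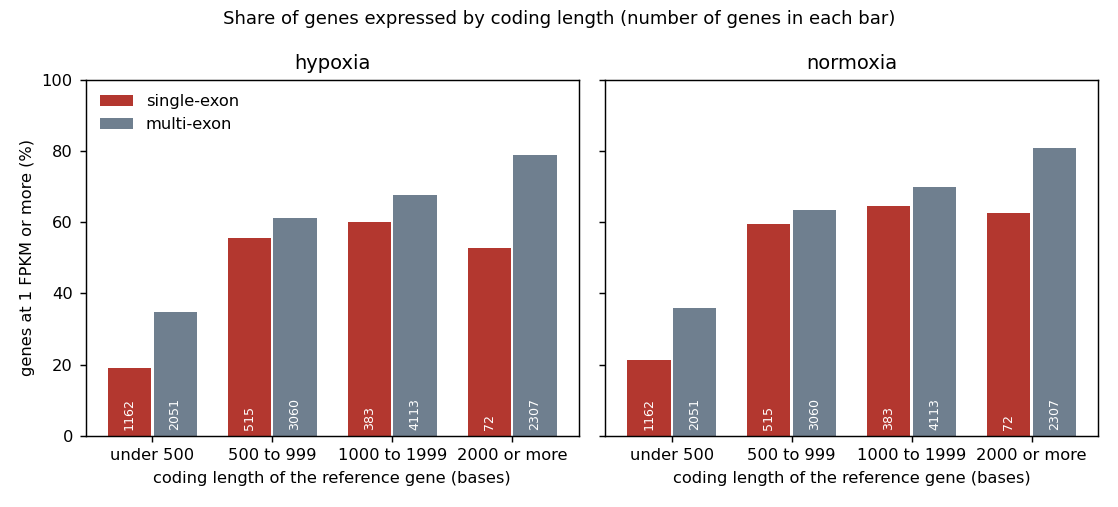
Percentage of genes at 1 FPKM or more (vertical axis) by coding length in bases (horizontal axis), in the hypoxia library (left) and the normoxia library (right). Bars are single-exon genes (red) and multi-exon genes (grey) of ChLG2 to ChLG10, with the number of genes in each bar; the red bars are lower in every length class, 18.9% against 34.9% under 500 bases and 52.8% against 79.0% at 2000 bases or more in hypoxia.

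The difference in the share expressed held within each class of coding length, but its size varied. Under 500 bases 18.9% of the members and 34.9% of the multi-exon genes were expressed in hypoxia, and 21.3% and 35.8% in normoxia. From 500 to under 1000 bases the shares were 55.5% of members and 61.1% of multi-exon genes in hypoxia, and 59.4% and 63.5% in normoxia. From 1000 to under 2000 bases they were 60.1% of members and 67.6% of multi-exon genes in hypoxia, and 64.5% and 69.8% in normoxia. Among genes of at least 2000 bases, 52.8% of the 72 members and 79.0% of the 2307 multi-exon genes were expressed in hypoxia, and 62.5% and 80.9% in normoxia. The gap was thus widest in the shortest and the longest class. The classes did not hold length equal. Under 500 bases the median coding length was 291 bases in members and 363 bases in multi-exon genes. The part of length in the gap there was not tested.

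A large part of the members had no measured level at all. Of the 2132, 1043 (48.9%) were listed at 0 in both libraries, against 2610 of the multi-exon genes (22.6%). In the class under 500 bases this was 72.0% of the members and 56.7% of the multi-exon genes, and from 1000 to under 2000 bases 17.0% and 16.1%. A listed 0 can also be a failed estimate, and its Cufflinks interval shows how much it can hide. For 923 members in hypoxia and 896 in normoxia the reference transcript was listed at 0 with an upper bound of 0. Where a member under 500 bases was listed at 0 with an upper bound above 0, the median bound was 1.25 FPKM in hypoxia (178 members) and 1.43 FPKM in normoxia (159 members), above the 1 FPKM that counts as expressed. For members of 1000 to under 2000 bases it was 0.187 FPKM in hypoxia (23 members) and 0.215 FPKM in normoxia (24 members). For short genes near 1 FPKM, expressed and not expressed were therefore not told apart at this depth.

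The members together held 8.45% of the summed FPKM of the hypoxia library and 8.04% of that of the normoxia library, and the 10 most abundant members held 48.6% and 47.4% of the members' sum. The sources used here pair none of these 10 with a gene name. TC003326 (ChLG3, 1567765 to 1568895, 1131 bases) was the highest, at 17841 FPKM in hypoxia (interval 17100 to 18582) and 14065 FPKM in normoxia (13479 to 14650). TC000791 (ChLG2, 7519536 to 7519742), with a coding length of only 207 bases, followed at 7688 FPKM in hypoxia and 7577 FPKM in normoxia. These values differed 1.27-fold and 1.01-fold between the libraries. TC006296, also of 1131 bases (ChLG8), had 3534 FPKM in hypoxia and 5110 FPKM in normoxia. TC006610 (198 bases, ChLG8) had 4585 FPKM in hypoxia and 3713 FPKM in normoxia. TC006170 (1005 bases, ChLG8) had 4000 FPKM in hypoxia and 3028 FPKM in normoxia. Of these 3, TC006296 was lower and the other 2 were higher in hypoxia, by less than 1.5-fold. TC002985 (3520 FPKM in hypoxia, 3651 FPKM in normoxia), TC007932 (3272 and 2775 FPKM), TC013536 (2587 and 2614 FPKM) and TC014362 (2398 and 2400 FPKM) completed the group with TC012207.

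TC012207 (ChLG9, 1000324 to 1001463, 1140 bases) was the exception among the abundant members. It had 47.8 FPKM in hypoxia (interval 42.9 to 52.7) and 6156 FPKM in normoxia (6099 to 6213), 129-fold lower in hypoxia. Its hypoxia value came from an assembled transcript of 1 exon and 1270 bases, and its reference transcript was listed at 0 there with an upper bound of 0.232 FPKM. TC003326, TC006296 and TC012207 have nearly the same coding length, and whether they share sequence, so that fragments could be given to another of them, was not tested here. The level of TC003326 was likewise carried by the reference transcript in hypoxia and by an assembled transcript of 1265 bases in normoxia, where the reference transcript was listed at 0.

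**Figure D2:**
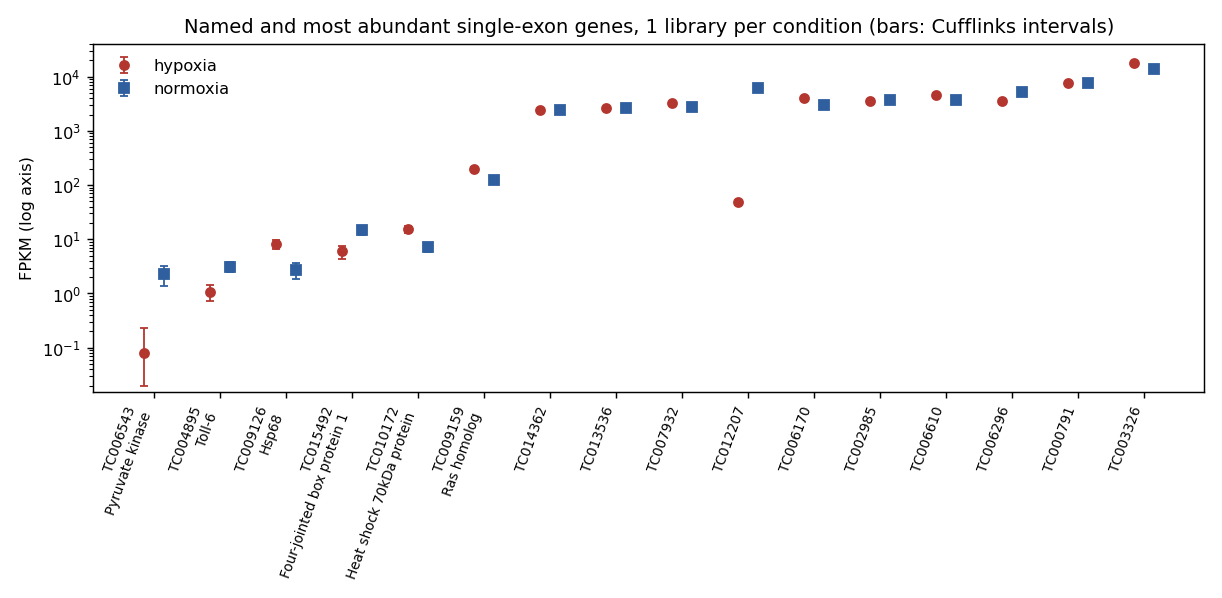
FPKM (vertical, log axis) of the 6 named and the 10 most abundant single-exon genes, with hypoxia (red circles) left of normoxia (blue squares) for each gene and Cufflinks intervals as bars (a lower bound of 0 is drawn at 0.02). The abundant genes lie close together in both libraries apart from TC012207, at 47.8 FPKM in hypoxia and 6156 FPKM in normoxia.

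In the response to hypoxia the single-exon genes were called about as often as all genes. A call of higher or lower needed a difference of at least 1.5-fold, with 0.1 FPKM added to both values, and Cufflinks intervals that did not overlap. Such an interval holds the error of counting fragments and dividing them among transcripts, and none of the spread between larvae. Of the 2132 members, 842 had a mean of at least 1 FPKM over the 2 libraries and entered the comparison. Of these, 65 (7.72%) were higher, against a background of 7.38% of all 9725 genes above the filter, and 99 (11.8%) were lower, against a background of 11.8%. Both shares were near the background. This held for calls with separate intervals only: without regard to the intervals, 14.3% of the members and 10.5% of the multi-exon genes were at least 1.5-fold higher, and 24.0% and 17.5% were lower.

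The log2 ratio of hypoxia over normoxia had a median of -0.16 over the 842 members, with quartiles of -0.56 and 0.21. Over the 7501 multi-exon genes above the filter the median was -0.10, with quartiles of -0.41 and 0.21, and over all 9725 genes it was -0.10. The members' median thus stood below that of all genes. It also stood below that of the multi-exon genes in each of 3 ranges of level. At a mean of 1 to 10 FPKM it was -0.30 in 411 members and -0.21 in multi-exon genes, at 10 to 100 FPKM it was -0.14 in 317 members and -0.08 in multi-exon genes, and at 100 FPKM or more it was -0.05 in 114 members and 0.01 in multi-exon genes. The spread of the members was wider at low levels, where their quartiles were -0.97 and 0.29. The members' levels were also measured less precisely. At 5 FPKM or more, the distance from value to bound had a median of 17.3% of the FPKM in members and 12.3% in multi-exon genes in hypoxia.

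**Figure D3:**
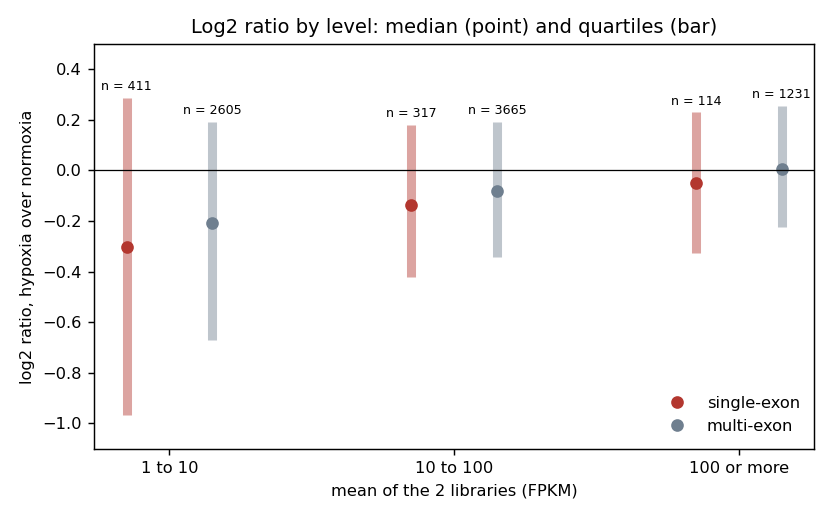
Log2 ratio of hypoxia over normoxia (vertical axis) in 3 ranges of the mean FPKM (horizontal axis), for single-exon (red) and multi-exon genes (grey); points are medians and bars run between the quartiles. The members' medians are -0.30, -0.14 and -0.05, each slightly below that of the multi-exon genes, and all bars overlap.

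**Figure D4:**
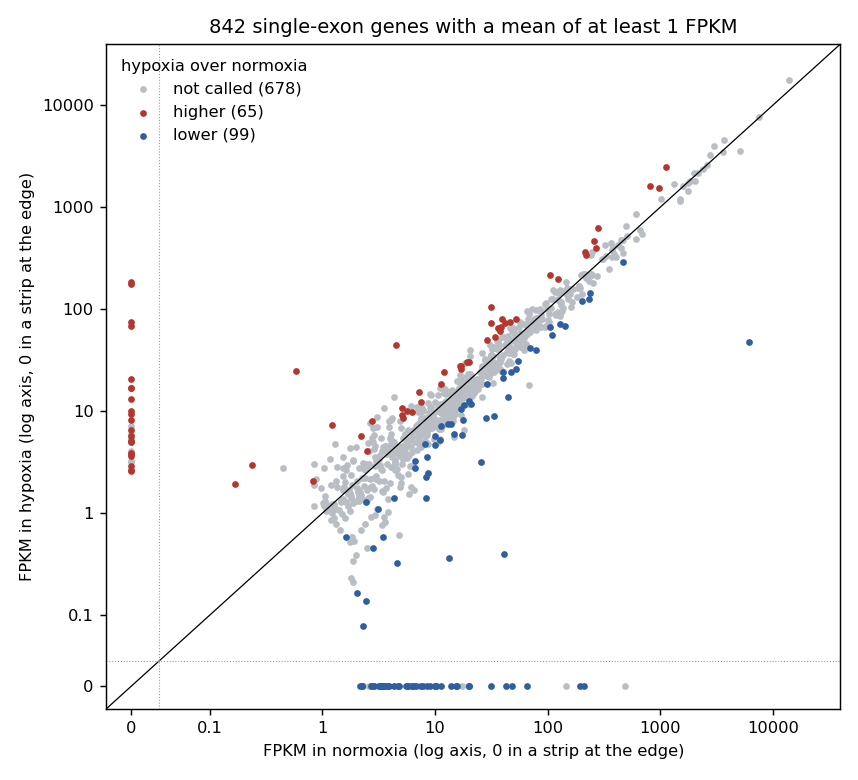
FPKM of the 842 single-exon genes that passed the filter of 1 FPKM, in hypoxia (vertical) and in normoxia (horizontal), both on log axes with genes listed at 0 in a strip at the edge. Red points are the 65 genes called higher and blue points the 99 called lower under hypoxia; 21 of the red and 46 of the blue points lie in the strips.

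Many calls of members rested on a listed 0. Of the 65 higher members, 21 (32.3%) were listed at 0 in normoxia, and of the 99 lower members, 46 (46.5%) were listed at 0 in hypoxia. Among multi-exon genes 25.6% of the higher and 23.2% of the lower calls were of this kind. In some of the members' calls the listed 0 also had an upper bound of 0. Any lower bound above 0 in the other library then met the interval condition. Without the genes at a listed 0, 44 of 753 members (5.84%) were higher, against a background of 5.85%. In the same set 53 (7.04%) were lower, against a background of 9.44%. This step took out 46.5% of the members' lower calls but 25.0% of those over all genes. That the lower share lay below the background therefore follows in part from leaving out those calls.

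A few members have names in the study, which chose its genes on the same libraries, so their directions are no independent evidence. The list of named genes held 6 members and 68 multi-exon genes. All 6 members were called, 3 higher and 3 lower, and of the 68 multi-exon genes 32 were higher and 31 lower. The higher ones included 2 heat shock genes. Heat shock 70kDa protein (TC010172; ChLG7, 18632919 to 18634859, 1941 bases), a chaperone that helps proteins fold, had 15.2 FPKM in hypoxia (12.8 to 17.6) and 7.15 FPKM in normoxia (5.74 to 8.56), 2.13-fold higher. The gene annotated as heat shock protein 68a and 68b (TC009126; ChLG7, 6605773 to 6607710, 1938 bases), of the same family, had 8.08 FPKM in hypoxia (6.59 to 9.57) and 2.75 FPKM in normoxia (1.84 to 3.67), 2.94-fold higher. Both stood below the median of the expressed members in normoxia. For TC010172 the normoxia value came from an assembled transcript alone, with the reference transcript listed at 0. In hypoxia the reference transcript of TC010172 had 8.61 FPKM and an assembled transcript 6.63 FPKM.

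The third of the higher ones was the Ras homolog (TC009159; ChLG7, 5079518 to 5080096, 579 bases), of the family of small GTPases that act as switches in signalling. It had 196 FPKM in hypoxia (181 to 211) and 123 FPKM in normoxia (110 to 135), 1.60-fold higher. The neighbouring member TC009158, 1000 bases away on the same strand, also of 579 bases and with no name in the sources used here, had 1806 FPKM in hypoxia and 1829 FPKM in normoxia. The abundant gene of this pair was thus level while the named one was called, and TC009158 was chosen after its values were seen.

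Of the 3 lower ones, Four-jointed box protein 1 (TC015492; ChLG6, 2477834 to 2479024, 1191 bases), in *Drosophila* a kinase of the Golgi that modifies the cadherins Fat and Dachsous, had 5.96 FPKM in hypoxia (4.32 to 7.60) and 14.8 FPKM in normoxia (12.1 to 17.6), 2.49-fold lower in hypoxia. Toll-6 (TC004895; ChLG2, 5084054 to 5087872, 3819 bases), a transmembrane receptor of the Toll family, had 1.08 FPKM in hypoxia and 3.13 FPKM in normoxia, 2.89-fold lower in hypoxia. Its reference transcript was listed at 0 in both libraries, and both values came from assembled transcripts of 2 exons. The gene annotated as pyruvate kinase (TC006543; ChLG8, 13516574 to 13518181, 1608 bases), an enzyme of the last step of glycolysis, had 0.0783 FPKM in hypoxia (0 to 0.235) and 2.28 FPKM in normoxia (1.39 to 3.18). These are low levels, and with 1 FPKM added to both values its log2 ratio was -1.61 in place of -3.74. The 2 values differ 29.2-fold, whereas the study, working from read counts, lists a much smaller fall for this gene.

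The largest log2 ratios among called members with a mean of at least 5 FPKM were nearly all against a listed 0, so no fold is given for them. On the higher side, TC013392 had 185 FPKM, TC010457 179 FPKM, TC007437 75.1 FPKM and TC014321 68.7 FPKM in hypoxia, and all 4 were listed at 0 in normoxia. TC006518, TC009209, TC007241, TC015242 and TC003161 had 20.7, 16.7, 16.7, 13.1 and 10.1 FPKM in hypoxia and were also listed at 0 in normoxia. The hypoxia values of TC003161, TC009209 and TC015242 came from assembled transcripts alone. TC007241 shares 552 of its 561 bases with TC008227 on the other strand, which was listed at 0 in both libraries. The 0 of TC007241 in normoxia had an upper bound of 0. The tenth, TC009952 (ChLG7, 14506726 to 14507109, 384 bases), had 24.8 FPKM in hypoxia (17.4 to 32.2) and 0.584 FPKM in normoxia (0 to 2.26), 42.4-fold higher. Its neighbour TC009953 (462 bases), 2323 bases away on the same strand, had 44.4 FPKM in hypoxia and 4.54 FPKM in normoxia, 9.78-fold higher. TC009952 shares 306 exonic bases with TC008890 on the other strand, which had 7.34 FPKM in hypoxia and 0.808 FPKM in normoxia. TC009953 also shares exonic bases with a gene on the other strand, and reads of the 2 strands cannot be told apart. It was chosen after its values were seen.

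On the lower side all 10 genes were listed at 0 in hypoxia. TC030049 had 209 FPKM, TC030690 193 FPKM, TC015568 66.0 FPKM, TC011758 48.2 FPKM and TC012099 42.5 FPKM in normoxia. TC030643, TC006338, TC014970, TC001191 and TC008344 had 31.2, 20.1, 20.0, 15.6 and 15.3 FPKM in normoxia. For TC012099 (1011 bases) the 0 had an upper bound of 0.268 FPKM and for TC030049 (309 bases) one of 1.63 FPKM. TC011758 shares all its 261 bases with TC012736 on the other strand, which had 42.7 FPKM in hypoxia and 39.6 FPKM in normoxia. TC008344 shares 186 of its 249 bases with TC007141 on the other strand, which had 5.90 FPKM in hypoxia and 4.75 FPKM in normoxia. In hypoxia 2 assembled transcripts on the other strand, with a summed 19.4 FPKM, covered bases of TC015568. Reads of the strands cannot be told apart there.

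For the 67 members called on a listed 0, the assembly of the library with the 0 was examined. In 52 of them no assembled transcript covered any base of the exon there, and their median in the other library was 6.48 FPKM. Reference transcripts of other genes were not counted, and TC011758, which shares its bases with TC012736, is among the 52. In 7 an assembled transcript on the same strand covered part of the exon but had been given to a neighbouring gene, and in 8 only a transcript on the other strand did. Among the 7 were TC013392 and TC007437 of the higher side and TC030690 of the lower side. In normoxia 3 transcripts with a summed 53.8 FPKM overlapped TC013392 and were given to TC013391. In hypoxia a transcript of 98.1 FPKM overlapped TC030690 and was given to TC030657. Whether such transcripts also overlapped these genes in the other library was not examined. The part of assembly in their differences between the libraries was not tested. TC010457, TC014321, TC030049 and TC012099 had no overlapping assembled transcript in the library with the 0.

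Among the members above 0 in both libraries the called changes were smaller. The median log2 ratio of the 44 higher ones was 0.82, and 5 of them had at least a 4-fold change. The median of the 53 lower ones was -1.06, and 11 of them had at least a 4-fold change. Of the 114 members with a mean of at least 100 FPKM, 10 (8.77%) were higher and 8 (7.02%) lower, against 9.99% and 8.12% of the multi-exon genes at this level. The genes named here and in the next paragraph, other than TC012207, were chosen after their values were seen. TC009099 (294 bases, ChLG7) had 2511 FPKM in hypoxia (2369 to 2653) and 1132 FPKM in normoxia (1047 to 1218), 2.22-fold higher. TC013136 (381 bases, ChLG5) had 1618 FPKM in hypoxia and 811 FPKM in normoxia, 1.99-fold higher. TC013861 (828 bases, ChLG5) had 630 FPKM in hypoxia and 278 FPKM in normoxia, 2.27-fold higher. These 3 have no name in the sources used here.

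Large falls above 0 in both libraries were of TC012207, described above, and of genes at lower levels. TC007207 (744 bases, ChLG4) had 0.393 FPKM in hypoxia (0 to 1.07) and 41.2 FPKM in normoxia (30.7 to 51.7), 105-fold lower in hypoxia. Of its normoxia value, 34.3 FPKM came from an assembled transcript of 2 exons. The intron of that transcript lay within the coding exon and was not found in hypoxia. TC016377 (1098 bases, ChLG7) had 0.364 FPKM in hypoxia and 13.2 FPKM in normoxia. TC004000 (1605 bases, ChLG3) had 3.14 FPKM in hypoxia (2.14 to 4.14) and 25.4 FPKM in normoxia (22.1 to 28.8), 8.10-fold lower in hypoxia. A high level alone did not make a call: TC000186, of 99 bases, had 492 FPKM in normoxia and was listed at 0 in hypoxia, but its normoxia interval ran from 0 to 1154 FPKM.

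Assembly of the reads found introns in a part of the genes that the reference gives as single exons. In hypoxia 181 members and in normoxia 184 members had received at least 1 assembled transcript of 2 or more exons, 221 members in either library and 144 in both. Taking expressed members, 23.3% had such a transcript in hypoxia and 21.8% in normoxia. Of expressed multi-exon genes, 40.8% in hypoxia and 40.8% in normoxia had an assembled intron that their reference transcripts lack. The 2 libraries were assembled separately, and 189 introns of members had identical ends in both, 68.5% of the 276 found in hypoxia and 67.5% of the 280 found in normoxia. These 189 lay in 135 members.

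The introns mostly lay upstream of the coding exon. Of the 189 shared introns, 138 in 107 members were wholly upstream of the coding start, 26 in 16 members were wholly downstream of the coding end, 21 in 19 members ran from outside into the coding exon, and 4 in 4 members lay within it. The median length of the 189 was 363 bases, with quartiles of 81 and 3204 bases and a range of 44 to 142940 bases. The nearest upstream intron of the 107 members ended at a median of 12 bases before the coding start (quartiles 4 and 39.5 bases), within 10 bases in 50 members and within 100 bases in 96. These distances were counted along the genome, so they include any intron that lies between.

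**Figure D5:**
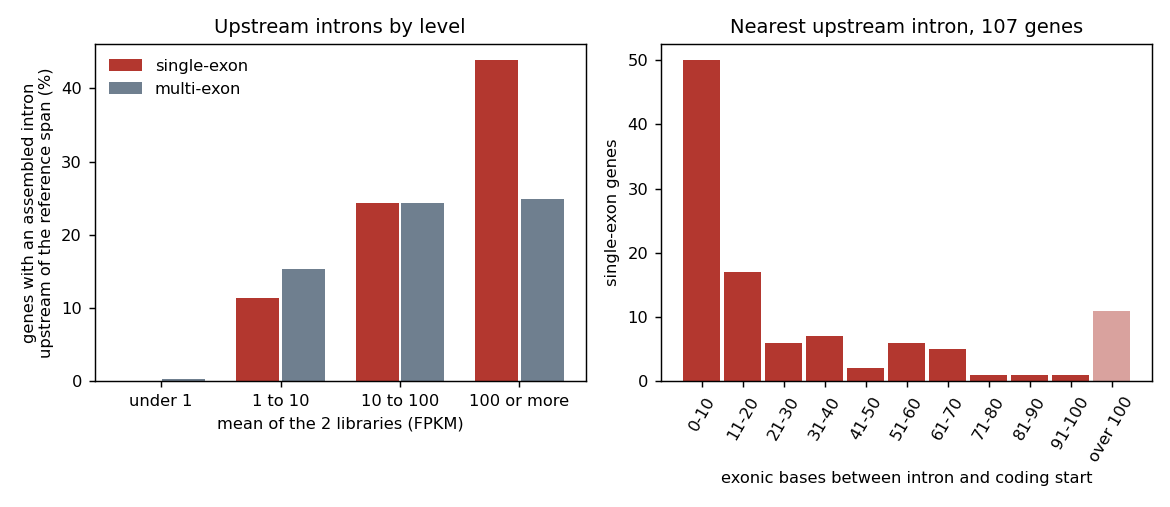
Left, percentage of genes with an assembled intron wholly upstream of the reference span in either library (vertical) by mean FPKM (horizontal), for single-exon (red) and multi-exon genes (grey). Right, number of single-exon genes (vertical) by the bases between the coding start and the nearest upstream intron found in both libraries (horizontal). The axis names them exonic bases, but they were counted along the genome. The share of single-exon genes reaches 43.9% at 100 FPKM or more, against 24.9% of multi-exon genes, and 50 of 107 genes have the intron within 10 bases of the coding start.

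The share with an upstream intron was larger at higher levels. The level includes the FPKM of the spliced transcript itself, so few such genes could lie under 1 FPKM, and the shares are a description. The share was 11.4% of the members with a mean of 1 to 10 FPKM, 24.3% at 10 to 100 FPKM and 43.9% (50 of 114 members) at 100 FPKM or more, and 0 of 1290 members under 1 FPKM had one. Multi-exon genes had an assembled intron upstream of their reference span in 15.3%, 24.4% and 24.9% (306 of 1231) of genes at these 3 levels. Introns within the reference span were found in 6 members in hypoxia and 12 in normoxia, 0.775% and 1.42% of the expressed ones. Among expressed multi-exon genes the shares were 21.8% and 22.2%. These are unlike measures. The span of a member is its 1 coding exon, while that of a multi-exon gene also holds its reference introns, where other splice ends count.

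The 5 most abundant members with a shared intron all had it directly before the coding start. In TC030666 (ChLG6, 8892962 to 8893753) an intron of 357 bases ended 0 bases before the coding start, in TC002985 (ChLG3, 7174320 to 7174655) one of 102 bases ended 1 base before it, in TC006170 (ChLG8, 4183074 to 4184078) introns of 302 and 306 bases ended 5 bases before it, in TC013536 (ChLG5, 10167671 to 10168219) one of 61 bases ended 6 bases before it, and in TC007932 (ChLG4, 3479999 to 3480478) one of 113 bases ended 9 bases before it. The spliced transcripts carried much of these genes' level. In TC007932 they had 3272 FPKM in hypoxia, with the reference transcript listed at 0, and 2052 of 2775 FPKM in normoxia. In TC002985 they had 1724 of 3520 FPKM in hypoxia and 2156 of 3651 FPKM in normoxia.

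In TC006170 the split between the reference and the spliced transcripts differed between the libraries more than their sum did. There the 2 spliced transcripts summed to 2912 FPKM in hypoxia and 838 FPKM in normoxia, the reference transcript had 1087 FPKM in hypoxia and 2190 FPKM in normoxia, and the sum was 1.32-fold higher in hypoxia. Toll-6 had its intron at the other end, as 17509 bases starting 17 bases after the coding end, with identical ends in both libraries.

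Members with an intron found in both libraries had, by that choice, an assembled transcript above 0 in each, which is part of their level. That none of the 135 was listed at 0 is therefore fixed by the choice, and so in part is their level, with medians of 40.7 FPKM in hypoxia and 39.6 FPKM in normoxia. Their median coding length was 801 bases, against 408 bases for the 1911 members with no intron in either library. Of the 135, 13 (9.63%) were higher and 10 (7.41%) lower under hypoxia. None of them could be called on a listed 0, so the matching background is that without listed zeros, 5.85% higher and 9.44% lower. Of the 624 members above the filter with no intron 40 (6.41%) were higher and 76 (12.2%) lower. This was near the background of 7.38% and 11.8% over all genes above the filter. Without the genes at a listed 0, 25 (4.57%) of 547 members with no intron were higher and 36 (6.58%) lower, against 5.85% and 9.44% of all genes. The share of lower calls was thus smaller with an intron than without over all genes above the filter, and larger once the listed zeros were left out. In the first of these comparisons only the members with no intron could have calls on a listed 0.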

How the data were processed

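The authors quality-trimmed the reads and compared them with the BeetleBase genome. They deposited a Cufflinks transcript file for either library, in which each reference and assembled transcript has an FPKM value with the lower and upper bound of its interval. The sources used here do not give the aligner, the Cufflinks version, the genome build or the release of the annotation. Positions were taken as the files print them. The files hold no read counts, so no count model was used, and within the files depth shows only through the intervals. The study reports the read totals of both libraries. More reads were kept after filtering in hypoxia than in normoxia, and their GC content was higher in hypoxia. The part of these differences in depth and GC content in the ratios was not tested.

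Reference transcripts were joined to genes by their identifier. An assembled transcript went to the gene on its strand that it shared the most exonic bases with. This placed 6654 of 7423 in hypoxia and 6895 of 7674 in normoxia, 291 and 280 of them on members. Unstranded ones were given to no gene, and 0 overlapped a member. A gene's FPKM is the sum over its transcripts, and the distances to the Cufflinks bounds were combined as the root of summed squares. Log2 ratios were taken after adding a pseudocount of 0.1 FPKM, so that changes of low genes are understated, for genes whose mean reached 1 FPKM. Named were members that the study names, the 10 most abundant, the 10 largest and 10 smallest log2 ratios among called members with a mean of at least 5 FPKM, and the 5 most abundant with a shared intron. The members, lists and rules were chosen with earlier results of these data known. No sequence is printed, since no genome of the files' build was used here. The code was tested on simulated data. Calculations used Python 3.11.15, numpy 2.4.6, pandas 2.3.3 and scipy 1.17.1. The alternatives tried were other thresholds, filters, pseudocounts, centring and ways of giving transcripts to genes.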

Additional observations from a re-analysis of the deposited data

How the results depend on the processing

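With 1 library per condition, no replicate could be left out. No paired analysis was possible because each condition has 1 library. Expressed shares of members in hypoxia and normoxia became 44.0% and 46.5% at a threshold of 0.1 FPKM, 25.6% and 27.2% at 5 FPKM, 31.8% and 34.7% by reference transcripts alone, 39.5% and 43.0% with every assembled transcript counted in each gene it overlaps, and 32.5% and 34.7% over all chromosomes and unplaced scaffolds. At 5 FPKM the median of expressed members was 24.8 FPKM in hypoxia and 25.4 FPKM in normoxia. Share and median stayed below those of multi-exon genes in all 14 and all 12 alternatives. The median log2 ratio stayed between -0.21 and -0.14 over 10 alternatives. The 65 higher and 99 lower calls became 120 and 202 without regard to the intervals, 14.3% and 24.0% of the members against 10.5% and 17.5% of multi-exon genes. The higher calls were 37 at 2-fold (4.39% against 4.51%). The lower ones were 55 of 568 at a mean of at least 5 FPKM (9.68% against 11.8%) and 53 of 753 without genes at a listed 0 (7.04% against 9.81%). Members with an intron wholly within the coding exon were 6 in hypoxia, 12 in normoxia and 4 in both. By reference transcripts alone the log2 ratio of TC006170 turned to -1.01, that of TC007932 to -12.82 and that of TC003326 became 17.44, the last 2 against a listed 0, while Toll-6 (TC004895), TC003161, TC009209 and TC015242 had 0 in both libraries and lost their calls. Centring adds 0.10 to every log2 ratio and turned those of TC002985, TC013536, TC014362 and TC030666, none of them called, to 0.05, 0.08, 0.10 and 0.09. By reference transcripts alone TC002985 turned to 0.26 and TC030666 to 0.22. The short coding lengths limit the precision: where a listed 0 under 500 bases had an upper bound above 0, the median bound was 1.25 FPKM in hypoxia and 1.43 FPKM in normoxia.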

Other observations

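Assembled transcripts on the other strand covered exonic bases of 109 members in hypoxia (5.11%) and 100 in normoxia (4.69%), at a median of 12.6 FPKM in hypoxia and 13.8 FPKM in normoxia. In 34 of the 109 and 31 of the 100 the reference has a gene on that strand. Of these members, 72 in hypoxia and 68 in normoxia were themselves listed at 0. The kit does not mark strand, so these reads cannot be told apart from reads of the member.

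The share of members expressed differed between linkage groups, from 25.0% on ChLG10 to 43.1% on ChLG6 in hypoxia and from 30.3% on ChLG10 to 47.1% on ChLG6 in normoxia. Members in runs of neighbouring single-exon genes were expressed in 28.8% in hypoxia and 31.0% in normoxia, against 41.0% and 45.0% of the members outside such runs. The median coding length was 399 bases in the runs and 483 bases outside them, and its part in this difference was not tested.

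Assembled transcripts that overlap more than 1 gene on their strand covered bases of 106 members in hypoxia and 110 in normoxia. Assembled transcripts carried 26.1% of the members' summed FPKM in hypoxia and 35.2% in normoxia.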
